A study of Mus musculus with 2 samples.

Results

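The immunity-related GTPases (IRGs) are interferon-inducible GTP-binding proteins of mouse cells, and 7 of their genes are described here: Irgm1, Irgm2, Igtp, Iigp1, Tgtp1, Tgtp2 and Ifi47. The rule names them by symbol and uses no measured value, but the members were chosen with earlier results of these data known. All 7 were found among 55536 annotated gene rows, of which 22015 are protein-coding genes of the nuclear genome. The RNA came from macrophages grown out of the bone marrow of C57BL/6J mice. All cells met Lipid A, the membrane anchor of endotoxin and the moiety sensed by TLR4, at 100 ng/ml for 12 h. They then spent 12 h without it and met it again at 100 ng/ml for 60 min. Sequencing was of total RNA after removal of ribosomal RNA, from a fraction that the labels call nuclear in 1 field and nucleoplasmic in another. There is 1 group of 2 libraries, replicate 1 made from 1 µg of RNA and replicate 2 from 500 ng. Age and sex were not recorded, and a single donor identifier covers both libraries. The spread between them may therefore be technical. Unstimulated and singly stimulated cells were not analysed here, so no value below is a response to Lipid A.

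As background, interferon gamma and type I interferons switch on IRG genes through transcription factors that bind short DNA motifs near the start sites. The proteins of the GKS class, named for the amino acids glycine, lysine and serine in the nucleotide-binding loop, collect on the vacuoles of parasites such as Toxoplasma gondii and help to break them open. The GMS class, with methionine in place of that lysine, sits on the cell's own membranes and holds the GKS proteins inactive there.

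The stretch that divides the family is shown first, because the GMS regulators and GKS effectors are described separately. Each line gives the 30 bases that encode the nucleotide-binding loop, 5′ to 3′ on the coding strand, with the deciding codon in capitals. The bases were read from GENCODE M21 transcript sequences and placed on mm10 by the exon coordinates.
Irgm1, chr11:48866758-48866787, minus strand: actggggactctggcaatggcATGtcatct
Igtp, chr11:58206272-58206301, plus strand: actggggactctggcaatggcATGtcatct
Irgm2, chr11:58219692-58219721, plus strand: actggggactctggcaatggcATGtcatct
Tgtp1, chr11:48987664-48987693, minus strand: acaggggaaacaggcgcagggAAGtccact
Tgtp2, chr11:49059531-49059560, minus strand: acaggggaaacaggcgcagggAAGtccact
Ifi47, chr11:49095645-49095674, plus strand: atcgggcagtctgggactggcAAGtccagt
The 3 GMS genes carried the methionine codon and the same 30 bases. Tgtp1 and Tgtp2 carried the lysine codon and were the same as each other over this stretch, and Ifi47 carried the lysine codon in a different sequence context.

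The remaining gene, Iigp1, also encodes the lysine form. The whole coding sequences differed much more than the loop: Igtp and Irgm2 were 69.9% identical, whereas Tgtp1 and Tgtp2 were 99.7% identical with 4 substitutions in 1245 bases.

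Promoter windows, 250 bases before to 50 bases after a start site, came from RefSeq on GRCm38.p6 and were present for all members but 1, that is for 6 genes. The windows were searched on both strands for the letters GAAA, any 2 bases and GAAA, the core of the interferon-stimulated response element (ISRE) bound by IRF-containing complexes, and for TTCNNNGAA, the gamma-activated site (GAS). Neither pattern contains the other. The 60 bases around the matches are shown, 5′ to 3′ in the direction of the gene, because their layout is shared by 4 of the genes. Capitals mark the matched motifs.
Irgm1, chr11:48871427-48871486, minus strand: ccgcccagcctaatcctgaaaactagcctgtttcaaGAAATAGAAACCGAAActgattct
Igtp, chr11:58199486-58199545, plus strand: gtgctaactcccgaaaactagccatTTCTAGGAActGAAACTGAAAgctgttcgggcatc
Irgm2, chr11:58214877-58214936, plus strand: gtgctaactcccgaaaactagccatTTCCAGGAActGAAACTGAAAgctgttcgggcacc
Tgtp1, chr11:48992300-48992359, minus strand: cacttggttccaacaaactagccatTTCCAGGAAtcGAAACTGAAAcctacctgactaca
Tgtp2, chr11:49064259-49064318, minus strand: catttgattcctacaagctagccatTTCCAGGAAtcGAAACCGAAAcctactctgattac
In Igtp, Irgm2, Tgtp1 and Tgtp2 a GAS lay 2 bases before an ISRE, and the run ctagccatttc preceded and overlapped the GAS. That 11-base run occurs, on either strand, in 8 of 32851 windows of the table (0.0244%). It was picked as the longest run common to the windows of these genes, which are themselves among the 8. The low share therefore follows in part from how the run was chosen and is a description only. In Irgm1 there were 2 ISRE matches that overlap each other and no GAS.

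The ISRE was found in 5 of the 6 windows, against 3.44% of all 32851 windows, and the GAS in 4 of the 6, against 8.30% of all. Both motifs stood together in 0.454% of all windows. Neither was found in the window of Ifi47, which surrounds the start of the transcript Ifi47-202. The transcript Ifi47-201, to which most Ifi47 counts were assigned by the gene-table quantifier, starts 10.5 kb downstream of it. A second quantifier, described below, instead put Ifi47-202 first, with 40.8% of Ifi47 counts in replicate 1 and 35.7% in replicate 2. It gave Ifi47-201 22.4% and 33.3%. Over the whole 300-base windows, Igtp and Irgm2 were 73.5% identical and Tgtp1 and Tgtp2 69.3%. Among other lists, the ISRE was present in 5 of 5 windows of guanylate-binding protein genes. It was found in 8 of 15 windows of other interferon-stimulated genes and in 3 of 6 of other IRG loci. The interferon gamma and type I interferon pathways each had 1 of 8, ATG8 conjugation genes 0 of 8 and vacuole ubiquitin factors 1 of 5. For the GAS, guanylate-binding protein genes had 2 of 5, other interferon-stimulated genes 3 of 15 and other IRG loci 2 of 6. The interferon gamma pathway had 3 of 8 and the type I pathway 2 of 8. ATG8 conjugation genes had 2 of 8 and vacuole ubiquitin factors 0 of 5. Such matches describe sequence only. Iigp1 has no entry in the promoter table.

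Expected counts on annotated genes totalled 23630328 in replicate 1 and 15687634 in replicate 2. Macrophage markers were abundant: the 10 on the list all reached 10 TPM in both libraries, with median levels of 217.5 and 86.7 TPM in replicates 1 and 2. TPM is the length-corrected share of a transcript in its library, scaled to a fixed total, and is the unit of every level below. In the gene tables, none of 23 markers of neutrophils, lymphoid, dendritic, stromal or erythroid cells reached 1 TPM in both libraries, and 7 of them had 0 counts in both. The highest single value among them was 1.48 TPM in replicate 1 (Pecam1) against 0.53 TPM in replicate 2. By the second quantifier Pecam1, an endothelial marker, had 1.59 TPM in replicate 1 against 5.29 TPM in replicate 2, the only one of the 23 above 1 TPM. The libraries differed in composition. Mitochondrial protein-coding genes held 3.37% of counts in replicate 1 against 5.91% in replicate 2, and the median expressed gene had a log2 TPM ratio of 0.47, replicate 1 over replicate 2 (−0.39 by the second quantifier). Whether this difference in composition or the RNA input bears on the family was not tested.

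The IRG genes were well expressed in both libraries, with a summed level of 665 TPM in replicate 1 against 304 TPM in replicate 2 (485 ± 255 TPM, SD, n = 2). In expected counts they took 0.157% of replicate 1 (95% Wilson interval 0.155 to 0.158) and 0.0892% of replicate 2 (0.0878 to 0.0907). These intervals cover counting error only, and the difference between the libraries is far outside them. All 7 genes reached 1 TPM in both libraries, as did 39.9% of nuclear protein-coding genes. At 10 TPM in both there were 6 of the 7, all but Tgtp1, against 14.8% of nuclear protein-coding genes. At 100 TPM in both there was none, against 1.37%. In bulk RNA, fewer cells expressing a gene and less RNA per cell cannot be told apart.

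Of the GMS regulators, Irgm1 was the highest. Irgm1, whose loss in mice leaves them unable to control several intracellular bacteria, had 131 TPM in replicate 1 against 67.8 TPM in replicate 2 (99.4 ± 44.7 TPM, from 6747 and 3141 expected counts). It ranked 358 and 471 among nuclear protein-coding genes. Igtp, which encodes Irgm3, had 49.7 TPM in replicate 1 against 21.03 TPM in replicate 2, with ranks of 1030 and 1714. Irgm2 had 45.3 TPM in replicate 1 against 23.5 TPM in replicate 2, with ranks of 1141 and 1539. Igtp and Irgm2 changed places between the libraries, so their order was not resolved. Together the 3 regulators had 226 TPM in replicate 1 against 112 TPM in replicate 2, or 34.0% and 36.9% of the family sum.

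The GKS effectors spanned the widest range. Iigp1, which encodes Irga6, a well-studied vacuole-loading IRG, was the highest member, with 247 TPM in replicate 1 against 97.5 TPM in replicate 2 (172 ± 105 TPM, from 14031 and 4998 expected counts). It alone held 37.1% of the family sum in replicate 1 and 32.0% in replicate 2, and ranked 158 and 323. Tgtp2, one of the tandem genes for Irgb6, had 98.05 TPM in replicate 1 against 58.4 TPM in replicate 2. Ifi47, which encodes Irgd, had 81.3 TPM in replicate 1 against 33.55 TPM in replicate 2. Tgtp1, the other Irgb6 gene, was the lowest member in both libraries, with 13.1 TPM in replicate 1 against 2.63 TPM in replicate 2 (866 and 144 expected counts). The 4 effectors summed to 439 TPM in replicate 1 against 192 TPM in replicate 2, or 66.0% and 63.1% of the family.

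The order by mean was Iigp1, Irgm1, Tgtp2, Ifi47, Igtp, Irgm2 and Tgtp1. The range of levels over the libraries overlapped between neighbours for 5 of the 6 neighbouring pairs and was apart for Irgm2 and Tgtp1. Since all genes were higher in replicate 1, that overlap includes the difference between the libraries, and the pairs are also given within a library. Iigp1 was 1.88-fold above Irgm1 in replicate 1 and 1.44-fold in replicate 2. Ifi47 was 1.64-fold above Igtp in replicate 1 and 1.60-fold in replicate 2, the steadiest of the ratios above 1. Tgtp2 was 1.21-fold above Ifi47 in replicate 1 and 1.74-fold in replicate 2, and Irgm2 was 3.47-fold and 8.92-fold above Tgtp1. Igtp and Irgm2 were the only neighbours whose order turned between the libraries in these tables. The second quantifier, a set of transcript estimates made from the reads without the same alignment, gave 83.5 and 58.9 TPM for Iigp1 and kept it first and Tgtp1 last in both libraries. It placed Tgtp2, at 74.4 TPM in replicate 1 against 44.8 TPM in replicate 2, above Irgm1, whose level was 0.535 times that of Tgtp2 in replicate 1 and 0.803 times in replicate 2. That placing rested on the short transcript Tgtp2-202, which has no coding sequence: over coding transcripts alone Tgtp2 had 24.3 TPM in replicate 1 against 14.96 TPM in replicate 2 by this quantifier, below Irgm1 in both.

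**Figure D1:**
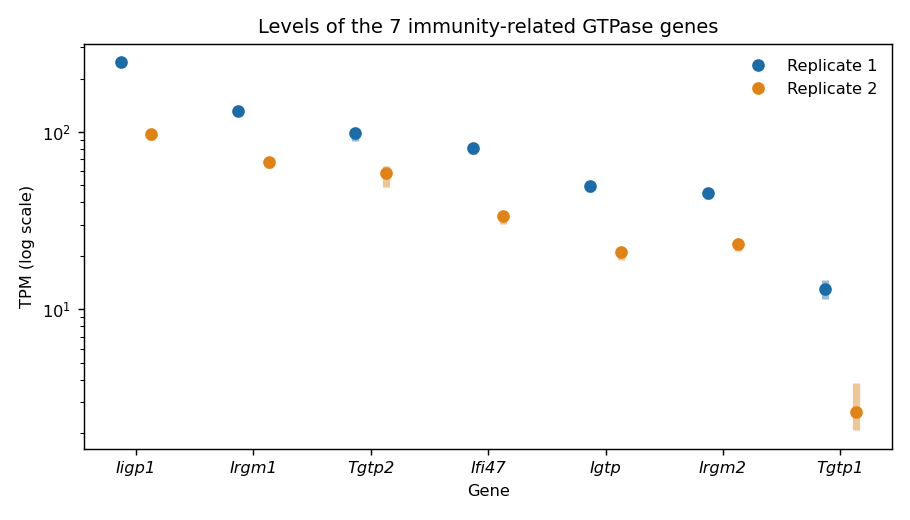
Level of each IRG gene in TPM (log axis) in replicate 1 (blue) and replicate 2 (orange), in order of the mean. Bars are the deposited intervals on TPM, whose level is not stated, and many are hidden by the points. Every gene sits higher in replicate 1, from Iigp1 at 247 and 97.5 TPM down to Tgtp1 at 13.1 and 2.63 TPM.

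The plot of levels shows the same order in both libraries for all genes but Igtp and Irgm2, and the widest gap between replicates at Tgtp1. The deposited point estimates lay above their own deposited intervals for 5 members in replicate 1 and 2 members in replicate 2, so the intervals were used for display and not as errors. The nuclear protein-coding genes whose pair of levels was closest to that of Iigp1 were Fabp5, a fatty acid-binding protein, with 260 TPM in replicate 1 against 103 TPM in replicate 2. Next were Znfx1, an RNA helicase-related antiviral factor, with 223 and 98.0 TPM, and the hexokinase gene Hk3 with 222 and 101 TPM. This likeness is a distance in log2(TPM + 0.1) over 2 libraries only.

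Tgtp1 and Tgtp2 are difficult to separate, because most of their sequence is shared. Of the distinct 31-base words in the annotated transcripts, 84.4% of those of Tgtp1 and 90.5% of those of Tgtp2 occur in another annotated gene, nearly always the partner. Igtp shares 15.9% and Irgm2 10.7%, mostly with each other, and Iigp1, Ifi47 and Irgm1 share 6.92%, 6.37% and 2.88%. Tgtp1 received 12.4% of the pair's expected counts in replicate 1 and 6.88% in replicate 2. The second quantifier gave it 12.3% in replicate 1 and 8.89% in replicate 2. Most counts were thus assigned to Tgtp2 by both quantifiers, and the values of the single genes are uncertain for as long as shared reads are divided by estimation. The pair together had 111 TPM in replicate 1 against 61.1 TPM in replicate 2, or 16.7% and 20.1% of the family sum. In expected counts the direction was the reverse. Scaled for library composition (TMM), counts of the pair were 2.18-fold higher in replicate 1, and those of the whole family 1.73-fold. The pair's share of family counts was thus higher in replicate 1.

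**Figure D2:**
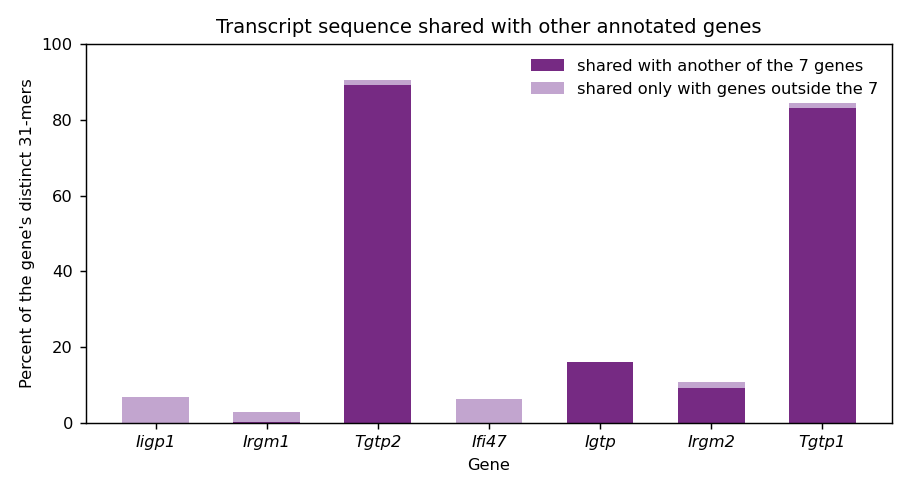
Percent of each gene's distinct 31-base words that also occur in transcripts of other annotated genes, with dark bars for sharing with another of the 7 genes and pale bars for sharing only with genes outside them. Tgtp2 at 90.5% and Tgtp1 at 84.4% stand far above the other 5, which lie between 2.88% and 15.9%.

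The plot of shared sequence orders the genes as the plot of levels does, and shows that the overlap is a matter of the Tgtp pair and, to a lesser extent, of Igtp and Irgm2. The level of Tgtp2 also turned on a short transcript. Tgtp2-202, annotated without a coding sequence and 370 bases long, had an effective length of 165 bases in replicate 1 and 153 bases in replicate 2. It held 0.691% of Tgtp2 expected counts in replicate 1 against 5.26% in replicate 2, but 9.91% and 48.5% of Tgtp2 TPM. With coding transcripts alone Tgtp2 had 88.3 TPM in replicate 1 against 30.1 TPM in replicate 2, a ratio of 2.93 in place of 1.68. In replicate 2 that is below Ifi47, at 33.55 TPM. By the second quantifier Tgtp2-202 held 67.3% of Tgtp2 TPM in replicate 1 and 66.6% in replicate 2.

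Annotated transcripts were used unevenly. For Iigp1, the coding transcript Iigp1-202 held 72.2% of expected counts in replicate 1 against 72.3% in replicate 2. The transcripts Iigp1-203 and Iigp1-205, which have no coding sequence and lie to 94.0% and 92.4% outside the exons of the coding ones, held 22.5% of Iigp1 counts in replicate 1 against 20.8% in replicate 2. This fraction of Iigp1 was close in both libraries and higher than in Irgm1 (1.77% and 1.40%) and Tgtp2 (0.691% and 5.26%). No other member has such a transcript annotated. Irgm1 was divided between Irgm1-202, with 59.7% of counts in replicate 1 and 49.6% in replicate 2, and Irgm1-201, with 38.6% and 49.0%. The second quantifier put Irgm1-201 first, with 51.9% and 57.8%. The leading transcript of Igtp, Igtp-201, held 92.1% and 75.9% of counts, and that of Irgm2, Irgm2-202, held 92.9% and 81.9%. Both quantifiers placed these leading transcripts of Igtp and Irgm2 first.

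**Figure D3:**
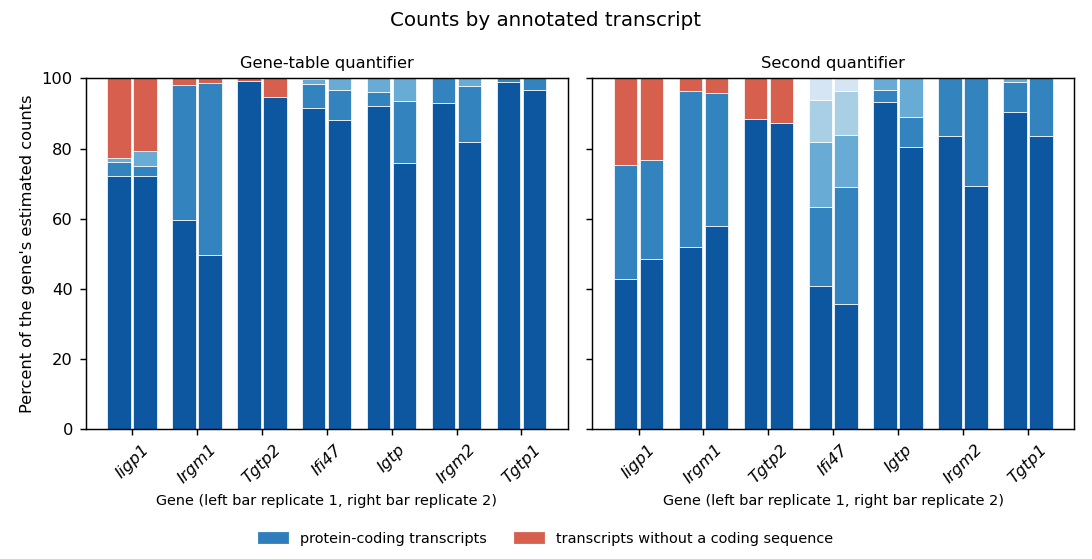
Percent of each gene's estimated counts held by its annotated transcripts in replicate 1 (left bar) and replicate 2 (right bar), by the quantifier of the gene tables and by the second quantifier. Blue shades are protein-coding transcripts, each shade another transcript, and red is transcripts without a coding sequence, which are widest for Iigp1 at 22.5% and 20.8% in the gene-table panel.

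The bars by transcript differ between the quantifiers most for Ifi47. Ifi47-201 held 91.7% of Ifi47 counts in replicate 1 against 88.2% in replicate 2 by the gene-table quantifier, but 22.4% and 33.3% by the second quantifier, which divided the gene among 5 transcripts. Transcripts without a coding sequence made up 15.9% of the members' TPM in replicate 1 and 20.96% in replicate 2. Over all nuclear protein-coding genes the same shares were 24.5% and 28.9%. In expected counts the members had 8.97% and 8.46%, and all nuclear protein-coding genes 15.8% and 18.7%. By this quantifier the share in the IRG genes was thus below that of all genes in each library on both scales, a description with no test. It depends on the annotation: only 4 of the 24 member transcripts have no coding sequence, and they belong to Iigp1, Irgm1 and Tgtp2. For Irgm2, Igtp, Tgtp1 and Ifi47 the share is 0 whatever the reads.

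The IRG genes on chromosome 11 lie in 2 clusters. The first, chr11:48861968-49096974, is 235 kb long and holds Irgm1 (48861968 to 48871683), Tgtp1 (48985327 to 48994172) and Tgtp2 (49057194 to 49064206) on the minus strand and Ifi47 (49076587 to 49096974) on the plus strand. Of 9 other annotated genes in it, 7 reached 1 TPM in both libraries. The second, chr11:58199556-58222782, is 23.2 kb long and holds Igtp (58199556 to 58207591) and Irgm2 (58199618 to 58222782) on the plus strand. These spans overlap by 7974 bases, 162 of them exonic in both, because the transcript Irgm2-201 starts inside Igtp. Irgm2-201 held 0 counts in replicate 1 and 38.55 in replicate 2. Counts in these overlapping exons may be exchanged between the genes. Iigp1 is the only one of the 7 on chromosome 18, at chr18:60376027-60392634 on the plus strand, and no other annotated gene lies in its span. Of the other IRG loci, 3 lie at lower coordinates of that chromosome: Gm4951 from 60212080, Gm4841 from 60268305 and F830016B08Rik from 60293380. Gm4951 had 41.8 TPM in replicate 1 against 18.7 TPM in replicate 2, and F830016B08Rik had 24.5 and 15.1 TPM. Gm4841 was low, with 2.60 and 0.61 TPM, and these 3 genes were named for their position after their values were seen.

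The neighbours within the first cluster were expressed as well. The IRG-related gene 9930111J21Rik2 had 83.5 TPM in replicate 1 against 39.1 TPM in replicate 2, and Gm5431 had 64.5 and 29.9 TPM. The IRG-related gene 9930111J21Rik1 had 67.8 TPM in replicate 1 against 21.2 TPM in replicate 2. Psme2b, named for a proteasome activator subunit, had 69.0 and 19.7 TPM. All 4 stood between Irgm1 and Tgtp1 in mean level and were higher in replicate 1. Gm12188, an annotated pseudogene within the span of Ifi47 on the opposite strand, had 25.9 TPM in replicate 1 against 9.64 TPM in replicate 2. These levels rest on only 74 and 22 expected counts over a gene of 310 bases. Gm12188 shares 106 exonic bases with Ifi47. Olfr56, on the plus strand across Tgtp1, Tgtp2 and Ifi47, had 11.8 and 6.18 TPM and shares exonic bases (111) only with Ifi47. Gm12185 had 6.25 TPM in replicate 1 against 2.74 TPM in replicate 2 and shares 223 exonic bases with Tgtp1 on the same strand. Whether the counting used strand is not given in the sources used here, so reads on overlapping exons cannot be assigned with certainty.

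All 7 genes were higher in replicate 1 than in replicate 2. To set this against the difference in composition, each ratio was taken relative to the median of 9228 nuclear protein-coding genes with a mean of 1 TPM or more. On this relative log2 scale all 7 stayed above 0, where 50% of genes lie by construction. Tgtp1 was at 1.80, Iigp1 at 0.87, Ifi47 at 0.80, Igtp at 0.76, Irgm1 at 0.48, Irgm2 at 0.47 and Tgtp2 at 0.27. The central 90% of genes lay between −0.70 and 0.74. Tgtp1, Iigp1, Ifi47 and Igtp were above that range, and the other 3 were inside it. Which genes stood outside depended on the measure. On TMM-scaled counts Tgtp1 was at percentile 99.2 and Tgtp2 at 96.1, whereas Iigp1 and Ifi47 were at 94.4 and Igtp at 93.5. For Tgtp2 the place also changed with no change of scaling. Over coding transcripts alone, an alternative chosen after seeing the data, Tgtp2 was at 1.08 on the same relative log2 TPM scale. That is above the central range, which was taken over all transcripts of each gene.

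The same direction held for all 7 under each scaling computed, where 49.9% of genes were higher in replicate 1 on TMM-scaled counts. Scaled by TMM, a factor for library composition, expected counts gave log2 ratios of 0.49 to 1.97 with a median of 0.88, and the second quantifier gave relative log2 ratios of 0.44 to 1.48. More than 2-fold apart on TMM-scaled counts were Tgtp1 (1.97) and Tgtp2 (1.03), 2 of the 7. Of 14052 genes, 4.28% were over 2-fold higher in replicate 1. Since Tgtp1 and Tgtp2 share most of their sequence and their reads are divided by estimation, these are not 2 separate calls. None of the 7 was over 2-fold higher in replicate 2, where 4.29% of genes were. The normalised counts of the effectors together were 1.92-fold higher in replicate 1, and those of the regulators 1.46-fold higher. With 2 libraries of 1 group this difference has no test.

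**Figure D4:**
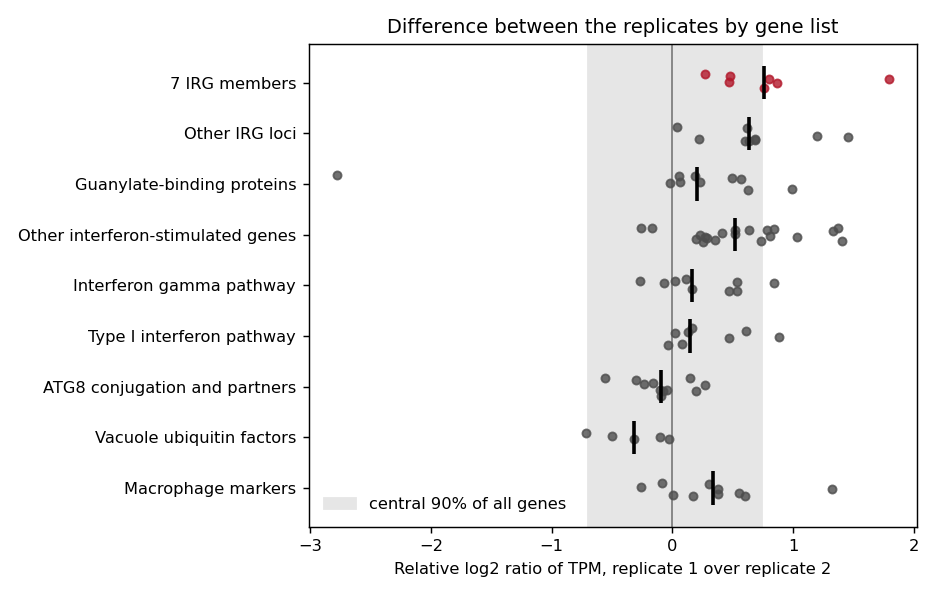
Relative log2 ratio of TPM, replicate 1 over replicate 2, for the genes of each list with a mean of 1 TPM or more. Each point is a gene, black bars are list medians and the grey band holds the central 90% of all genes; the 7 IRG genes lie between 0.27 and 1.80, with a median of 0.76.

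In the plot of ratios by gene list, the IRG genes and the other IRG loci have the highest medians of the lists shown. The lists of other cell types are left out of the plot, since the only gene among them with a mean of 1 TPM or more was Pecam1, at 0.85. Of the other IRG loci, 9 of 9 expressed genes were relatively higher in replicate 1, with a median of 0.63. The other interferon-stimulated genes had 18 of 20 and a median of 0.52, and macrophage markers 8 of 10 and 0.34. The guanylate-binding protein genes had 8 of 10 and a median of 0.21, and their lowest point, Gbp10 at −2.78, was picked out after its values were seen. By contrast the vacuole ubiquitin factors had 0 of 5 and a median of −0.32. The IRG genes were therefore not alone in being higher in replicate 1, and no test separates them from these lists.

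The interferon gamma pathway, 1 of those that induce IRG genes, was largely expressed, apart from its ligand. Ifng, the gene of interferon gamma, had 0 counts in each library, a count that still permits a level of 0.194 TPM in replicate 1 against 0.221 TPM in replicate 2. Its receptor chain Ifngr1 had 81.6 TPM in replicate 1 against 52.4 TPM in replicate 2, and the receptor kinase Jak2 had 51.1 and 44.5 TPM. The transcription factor gene Irf1 was higher, with 454 TPM in replicate 1 against 226 TPM in replicate 2. In all, 7 of 10 genes of the list reached 10 TPM in both libraries.

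The type I interferon pathway had all 8 listed genes at 10 TPM or more in both libraries. Its ligand gene Ifnb1 had 24.7 TPM in replicate 1 against 15.85 TPM in replicate 2. The receptor genes Ifnar1, with 71.0 and 52.6 TPM, and Ifnar2, with 62.3 and 40.9 TPM, were at similar levels. The factors Irf7, with 533 TPM in replicate 1 against 208 TPM in replicate 2, and Stat2, with 238 and 112 TPM, were higher than the receptors. All 20 other interferon-stimulated genes reached 10 TPM, with medians of 292 TPM in replicate 1 against 134 TPM in replicate 2. The highest was Rsad2, the antiviral enzyme viperin, with 1552 TPM in replicate 1 against 623 TPM in replicate 2. Ifit2 had 1023 and 422 TPM, the chemokine gene Cxcl10 893 and 375 TPM, and Oasl2 632 and 511 TPM.

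The IRG genes were on the whole lower than those genes, with a median of 81.3 TPM in replicate 1 against 33.55 TPM in replicate 2. That was close to the guanylate-binding proteins, the large interferon-inducible GTPases that act on the same vacuoles, whose medians were 78.2 and 47.4 TPM. Among the 11 on that list, 8 reached 10 TPM in both. Gbp5 had 347 TPM in replicate 1 against 254 TPM in replicate 2, Gbp6 had 266 and 184 TPM, and Gbp2 had 230 and 83.1 TPM. Gbp3 had 106 and 54.25 TPM. Among the other IRG loci, 6 of 11 reached 10 TPM in both, including Gm12250, known as Irgb10 and annotated as a processed pseudogene, with 49.1 and 23.2 TPM.

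Genes of the machinery that works with IRG proteins on vacuoles mostly lay below the median gene in their relative log2 ratio, replicate 1 over replicate 2. The ATG8 conjugation system directs IRG proteins to their target membranes, and its list here also holds partners such as Ulk1 and Becn1. Of the 12 genes on this list, 5 reached 10 TPM in both libraries. Gabarap, an ATG8 protein, had 60.05 TPM in replicate 1 against 63.8 TPM in replicate 2. Becn1 had 37.5 and 23.6 TPM, Atg7 16.2 and 13.7 TPM, and Atg16l1 14.5 and 11.7 TPM. Of 11 expressed genes of this list, 3 were relatively higher in replicate 1, with a median of −0.10. Of the ubiquitin factors recruited to such vacuoles, the receptor Sqstm1 had 403 TPM in replicate 1 against 362 TPM in replicate 2, and Tax1bp1 had 54.4 and 42.1 TPM. The ubiquitin ligases Trim21, with 43.0 and 31.55 TPM, and Traf6, with 10.75 and 11.0 TPM, were lower.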

How the data were processed

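The authors deposited tables for each of the 2 libraries: genes and transcripts with RSEM column names, and transcripts with kallisto column names (the second quantifier). Per the deposited readme, all use mm10 and GENCODE M21; the aligner, tool versions and strand setting were not given in the sources used here. The tables hold, per the file headers, expected counts (reads divided among transcripts by estimation), TPM and a posterior mean TPM. The bounds of a TPM interval are a signal per the file headers, and the percent of a gene's TPM held by each transcript was also deposited by the authors.

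Rows that match no annotated gene were left out: 1.19% of expected counts in replicate 1 against 0.215% in replicate 2. The replicates differed beyond counting error (chi-square per degree of freedom 81.5), so they are not 1 library deposited again. SDs are over 2 libraries. Ratios are of TPM + 0.1, centred on the median over nuclear protein-coding genes with a mean of 1 TPM or more. Counts were rounded for edgeR 4.0.16 (TMM) and DESeq2 1.42.0 size factors, for genes averaging 10 or more, under R 4.3.3. No test between conditions was possible. Python 3.11.15, pandas 2.3.3 and Biopython 1.88 did the rest, and the ratio step was tested on simulated data. Transcript sequences and coordinates come from GENCODE M21, and identities from global alignment. The members and lists were chosen with earlier results of these data known. Genes named were all 7 members, the 4 highest of each list, overlapping or intervening genes within a cluster, and the 3 genes closest to the highest member. A gene that this rule names is not reported here. Alternatives were the second quantifier, the posterior mean, other scalings, pseudocounts and floors, and each library alone.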

Additional observations from a re-analysis of the deposited data

How the results depend on the processing

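All 7 genes were higher in replicate 1 by TPM centred or not, by the second quantifier centred or not, and on counts scaled by TMM or DESeq2 size factors. The second quantifier turned the order of Irgm1 and Tgtp2. It also turned the replicate with the higher share for Tgtp1 and Tgtp2 (29.9% in replicate 1 and 25.1% in replicate 2, against 16.7% and 20.1%). The same held for transcripts without a coding sequence (32.1% and 28.4%, against 15.9% and 20.96%). In expected counts of the gene-table quantifier, both shares were likewise higher in replicate 1. The summed level, 485 TPM, was 228 TPM by the second quantifier and 1991 TPM when rescaled over nuclear protein-coding genes; without 1 replicate it was 304 to 665 TPM. The count at 10 TPM or more, 6, was 6 or 7 without 1 replicate. The median relative log2 ratio, 0.76, was 0.90 by the second quantifier, 0.88 by TMM, 0.88 by DESeq2 size factors, 1.24 when not centred and 1.18 with no filter on low values. Over 2-fold apart were 2 genes, and 4 by TPM not centred. On that scale 10.9% of 9228 nuclear protein-coding genes with a mean of 1 TPM or more were over 2-fold higher in replicate 1. By the second quantifier not centred it was 1 gene, for which the share of all genes was not computed. The share of Tgtp1 and Tgtp2, 18.4%, was 27.5% by the second quantifier and 15.9% over protein-coding transcripts only, an alternative chosen after seeing the data; without 1 replicate it was 16.7% to 20.1%. The share of transcripts without a coding sequence, 18.4%, was 30.3% by the second quantifier and 8.72% in expected counts; without 1 replicate it was 15.9% to 20.96%. The cause of these shifts was not tested. No paired analysis was possible because there is 1 group.

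With 2 libraries from a single donor identifier, SDs are imprecise and no condition can be compared. At these depths counting error is small beside the difference between the libraries, but Tgtp1 in replicate 2 rests on 144 counts. In replicate 2, 48.5% of Tgtp2 TPM comes from Tgtp2-202, with 102 counts. Values of Tgtp1 and Tgtp2 depend on how shared reads are divided.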
